A study of Mus musculus with 18 samples.

Results

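The genes that build the extracellular matrix of the liver, together with marker genes of the stellate cells that make much of it, were followed in mouse livers of 2 ages. They were picked by gene symbol, and 36 such genes stood in the deposited table of 18946 genes. They comprise 5 fibrillar collagen chains, 4 basement membrane and multiplexin collagen chains, 4 beaded filament and fibril-associated collagen chains, 4 matrix glycoproteins and elastic fibre proteins, 3 small leucine-rich proteoglycans, 2 crosslinking oxidases, 5 metalloproteinases and their inhibitors, 4 growth factors and receptors, and 5 markers of stellate cells, pericytes and myofibroblasts. The livers came from male C57BL/6J mice, an inbred laboratory strain, 8 of them Young (6.18 months) and 10 Old (19.76 months). After an overnight fast each mouse had a hyperinsulinemic-euglycemic clamp (insulin infused, with glucose given to hold blood glucose level) and its liver was then frozen, so both ages were insulin-stimulated and livers of mice given no insulin were not part of the comparison. RNA was extracted with the AllPrep kit from 3 Young and 5 Old livers and with the RNeasy kit from 5 Young and 5 Old livers. Ribosomal RNA was depleted, and each library came from a separate mouse with the same date of sacrifice in the labels.

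The liver holds little matrix when healthy. Hepatic stellate cells lie between hepatocytes and the sinusoidal endothelium, store vitamin A through the enzyme LRAT, and on activation turn into contractile, collagen-secreting myofibroblasts under signals such as TGF-beta and PDGF. Collagens leave the cell as procollagen and are trimmed, assembled and crosslinked outside it, and metalloproteinases and their TIMP inhibitors set how fast they are removed.

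Promoter windows, 250 bases before to 50 after the annotated start, were at hand for 24 of the 36 genes in the RefSeq table of build GRCm38.p6. The windows of 4 genes treated at length below are shown: Col1a2 and Col3a1, chains of type I and type III collagen that were high or low in the same livers, and Col4a1 and Col4a2, the chains whose ratio differed with age. Whether the windows bear on those results was not tested. They lie at chr6:4505368-4505667 on the plus strand (Col1a2), chr1:45311288-45311587 on the plus strand (Col3a1), chr8:11312777-11313076 on the minus strand (Col4a1) and chr8:11312555-11312854 on the plus strand (Col4a2). Each is written 5′ to 3′ on the gene's own strand, and capitals mark the CCAAT motif, the GGGCGG motif and the TATAAA motif, each searched on both strands.
Col1a2: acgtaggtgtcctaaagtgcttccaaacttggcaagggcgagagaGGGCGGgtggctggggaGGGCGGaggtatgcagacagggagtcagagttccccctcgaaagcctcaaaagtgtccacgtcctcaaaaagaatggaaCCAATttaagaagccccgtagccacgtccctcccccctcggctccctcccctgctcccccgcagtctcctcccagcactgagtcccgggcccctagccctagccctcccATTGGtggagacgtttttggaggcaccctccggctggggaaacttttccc
Col3a1: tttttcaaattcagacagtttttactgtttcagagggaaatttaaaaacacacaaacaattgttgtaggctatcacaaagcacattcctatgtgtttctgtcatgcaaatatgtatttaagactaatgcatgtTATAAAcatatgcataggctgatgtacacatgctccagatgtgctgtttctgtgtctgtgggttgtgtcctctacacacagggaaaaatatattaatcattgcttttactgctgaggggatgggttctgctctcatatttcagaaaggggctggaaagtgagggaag
Col4a1: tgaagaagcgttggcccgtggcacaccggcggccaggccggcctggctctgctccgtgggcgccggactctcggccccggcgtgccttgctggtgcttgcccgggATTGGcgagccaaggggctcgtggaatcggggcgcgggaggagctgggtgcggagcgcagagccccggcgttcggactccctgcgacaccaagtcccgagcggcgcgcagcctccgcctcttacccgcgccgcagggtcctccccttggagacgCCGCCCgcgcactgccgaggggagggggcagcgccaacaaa
Col4a2: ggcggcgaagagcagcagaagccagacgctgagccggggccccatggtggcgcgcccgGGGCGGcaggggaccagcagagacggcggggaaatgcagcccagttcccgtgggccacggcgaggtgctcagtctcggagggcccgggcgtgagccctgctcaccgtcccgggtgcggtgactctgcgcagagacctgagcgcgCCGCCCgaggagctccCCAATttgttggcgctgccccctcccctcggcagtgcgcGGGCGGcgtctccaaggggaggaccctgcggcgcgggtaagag
Col1a2 holds 2 CCAAT and 2 GGGCGG motifs in its window, and Col3a1 holds 1 TATAAA motif and neither of the others. Col4a1 and Col4a2 lie on opposite strands with start sites 21 bases apart. Each start lies inside the other gene, and their first 22 bases overlap. Their windows share 78 bases, each the reverse complement of the other. The GGGCGG match marked in Col4a1 and the last one marked in Col4a2 are the same site. CCAAT stood in 11 of the 26 windows of these genes against 37.4% of all 32851 windows, GGGCGG in 16 against 35.7%, and TATAAA in 3 against 13.6%. A motif match describes the letters only.

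The libraries held 85790735 to 127487820 reads over the listed genes, recovered as whole reads from the deposited TPM. Expression is given as scaled TPM, which is TPM (reads per gene length, rescaled to the same total in each library) after trimmed-mean scaling between libraries. Old replicate 14 stood apart from the other libraries: it had the highest value for 18.7% and the lowest for 24.3% of the 13895 tested genes. It also had the highest value of all 18 libraries for 14 of the 33 tested matrix and stellate genes, and Old replicate 7 had it for 12. Young replicate 1 had the lowest value for 11 of them. Old replicate 16 was above the median of its own age for 0 of the 33, against 32 for Old replicate 7. The age comparisons below are therefore given with all libraries and, for each of the 33 tested genes, also without Old replicate 14.

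Several of these genes were among the well expressed ones, while Lox, Tgfb2 and Acta2 were too low to test. Fn1, fibronectin, which hepatocytes also secrete into plasma, had the highest level, at 955 ± 332 scaled TPM in 8 Young livers (SD) and 1008 ± 208 in 10 Old livers (SD). Col18a1, the collagen XVIII chain from which endostatin is cut, followed with 373 ± 56.5 and 422 ± 81.7 scaled TPM. The proteoglycans Dcn and Bgn came next, and Mmp14 had the highest level of the rest, at most 70.6 scaled TPM. At the low end, Lox (8 to 70 reads per library) and Tgfb2 (13 to 178 reads) reached 0.5 scaled TPM in 0 of 18 libraries and Acta2 (13 to 423 reads) in 7 of 18, so these 3 genes were not tested. Acta2, the smooth muscle actin that marks myofibroblasts, ranged from 0.215 to 0.797 scaled TPM in Young and from 0.106 to 0.712 in 9 Old livers, with 2.67 in Old replicate 14.

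**Figure D1:**
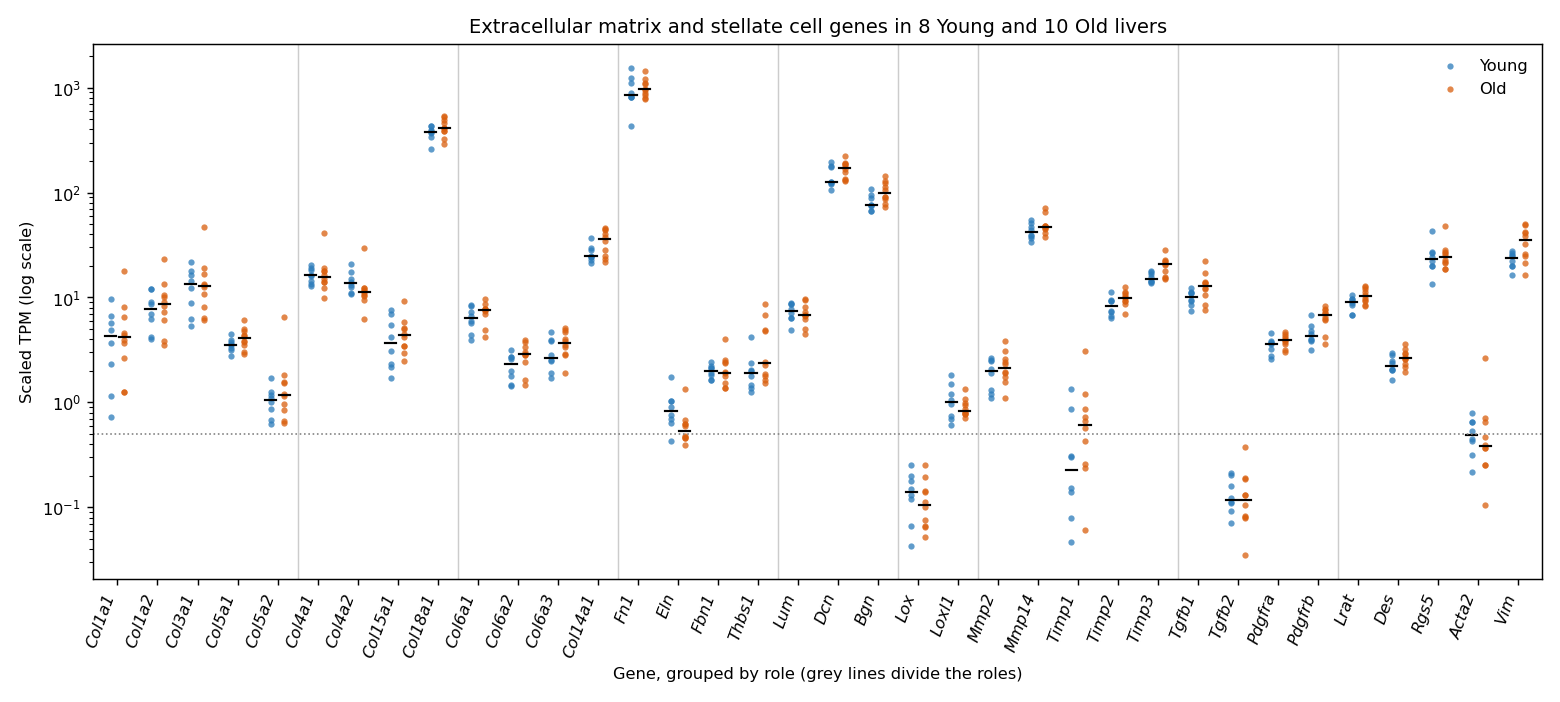
Scaled TPM of the 36 genes (vertical axis, log scale) in 8 Young livers (blue) and 10 Old livers (orange), 1 point per library, with a black bar at each group's median and genes ordered by role. The dotted line marks the filter at 0.5 TPM. Fn1 and Col18a1 stand at the top and Lox and Tgfb2 at the bottom, and the 2 ages overlap for each gene.

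With all 18 libraries, no gene of the 33 tested differed between Old and Young past the threshold. limma called 0 of 33 at a Benjamini-Hochberg adjusted p under 0.05 over all genes, where 4.91% of the 13895 tested genes were called (2.44% higher and 2.47% lower), and 6 of the 33 had an unadjusted p under 0.05, beside 3254 genes (23.4%) in all. The number called was also 0 with limma-voom on the recovered reads, which called 4.7% of all genes and gave 7 of the 33 and 3261 genes an unadjusted p under 0.05. The log2 fold (Old against Young, on the log2(scaled TPM + 0.5) scale) was positive for 29 of the 33, with a median of 0.18, beside 7069 of 13895 positive and a median of 0.0037 over all genes tested. Without Old replicate 14, 23 of 33 were positive and the median was 0.16. In AllPrep libraries alone the median was 0.40 and 29 of 33 were positive, in RNeasy libraries alone it was 0.034 with 18 of 33, and in RNeasy libraries without Old replicate 14 it was -0.019 with 13 of 33. limma called 2 of the 33 in AllPrep libraries alone (1.13% of all genes), where 19 of the 33 and 19.3% of all genes had an unadjusted p under 0.05. In RNeasy libraries alone it called 0 of 33 (0.0864% of all genes), with 1 of the 33 and 9.35% of all genes (1299) at an unadjusted p under 0.05. It called 0 of 33 there without Old replicate 14 (0.446%), with 7 of the 33 and 12.9% of all genes (1791) at that level. With lower weight on more variable libraries it called 2 of 33 (10.1% of all genes), and without Old replicates 14 and 16 together, tried after the data had been seen, also 2 of 33 (8.84%). Values of the 2 ages overlapped for each of the 33, where 0.216% of all tested genes lay wholly higher and 0.202% wholly lower in Old livers. In whole-liver RNA, fewer cells of a type and less RNA per cell cannot be told apart.

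**Figure D2:**
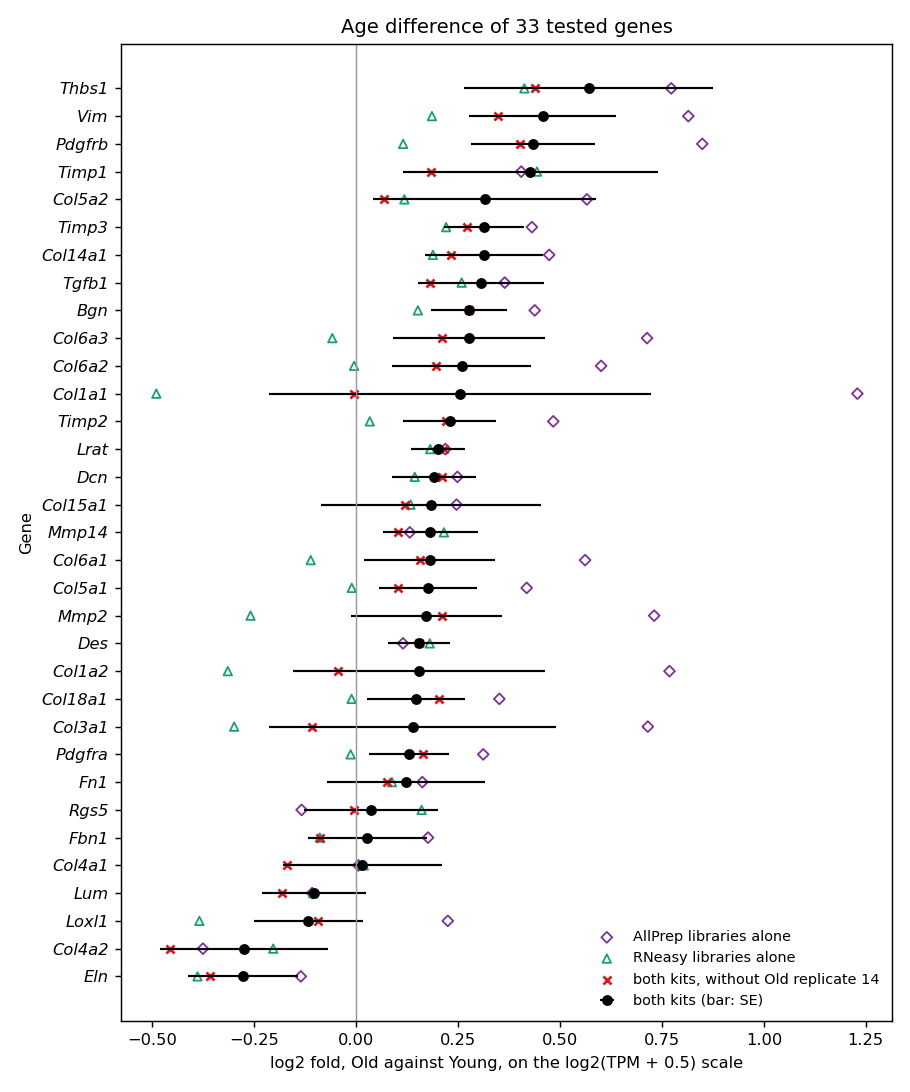
Log2 fold of Old against Young livers (horizontal axis) for the 33 tested genes, ordered by the fold with both kits (black points, bars show SE). Red crosses leave out Old replicate 14, and open purple diamonds and green triangles are AllPrep and RNeasy libraries alone. The diamonds of the collagen chains Col1a1, Col1a2 and Col3a1 lie at 1.23, 0.77 and 0.72 and their triangles at -0.49, -0.31 and -0.30.

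The fibrillar collagens form the tension-bearing fibrils of scar and portal matrix, and they varied more between livers of 1 age than between the ages. Col1a1, the main chain of type I collagen, ranged from 0.732 to 9.58 scaled TPM in Young livers, with a median of 4.30. In Old livers it ranged from 1.249 to 17.8 with a median of 4.16. The highest Old value belonged to Old replicate 14 and the next to Old replicate 7 at 8.04, the lowest values were in Young replicates 1 and 2 and Old replicates 16 and 17, and the groups overlapped almost fully. Its log2 fold was 0.25 ± 0.47 (SE) with a limma adjusted p of 0.778, and it was -0.0059 without Old replicate 14. The within-age SD of Col1a1 on the log2 scale, 1.04, was larger than that of 98.8% of all tested genes.

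Col1a2, the second chain of type I collagen, and Col3a1, the chain of type III collagen, followed the same livers. Col1a2 ranged from 4.04 to 12.2 scaled TPM in Young (median 7.81) and from 3.49 to 23.1 in Old (median 8.66). Col3a1 ranged from 5.36 to 21.7 scaled TPM in Young (median 13.3) and from 6.08 to 47.3 in Old (median 12.9). For both the highest value was again in Old replicate 14, and the medians of the 2 ages lay within each other's range. Their log2 folds were 0.15 ± 0.31 and 0.14 ± 0.35 (SE), with limma adjusted p of 0.799 and 0.845, and both became negative (-0.044 and -0.11) without Old replicate 14. Col5a1 and Col5a2, the minor chains that start fibrils, had log2 folds of 0.18 and 0.32 and adjusted p of 0.389 and 0.510 in limma, and of 0.10 and 0.068 without Old replicate 14. Col5a2 reached 6.48 scaled TPM in Old replicate 14 against 0.635 to 1.81 in the other Old livers.

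Summed over the 5 fibrillar chains, expression spanned 14.6 to 48.7 scaled TPM in Young and 14.5 to 100.8 in Old livers, with medians of 30.4 and 30.9. The highest Old sum was that of Old replicate 14, and without it the Old maximum was 44.5. The log2 fold of Col1a1 was 1.23 in AllPrep libraries and -0.49 in RNeasy libraries (-1.07 without Old replicate 14). The 2 kits thus gave opposite signs, and the limma test of that difference, kit by age, gave an adjusted p of 0.974, or 0.415 without Old replicate 14. No gene in the table passed the kit by age test (0 of 13895, with 4.22% of all genes, or 587, and 6 of the 33 at an unadjusted p under 0.05). Without Old replicate 14, 0.0216% of all genes and 0 of the 33 passed it, and 14 of the 33 had an unadjusted p under 0.05, beside 1193 genes (8.59%) in all. The ratio of Col1a1 to Col3a1 was 0.302 in Young and 0.326 in Old livers on average (exact permutation p = 0.520). Its log2 difference was 0.76 in AllPrep libraries (exact permutation p = 0.0179, the smallest that 56 splits can give, adjusted p = 0.0476) and -0.27 in RNeasy libraries. The ratio of Col1a1 to Col1a2 was 0.492 and 0.503 (exact permutation p = 0.637).

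**Figure D3:**
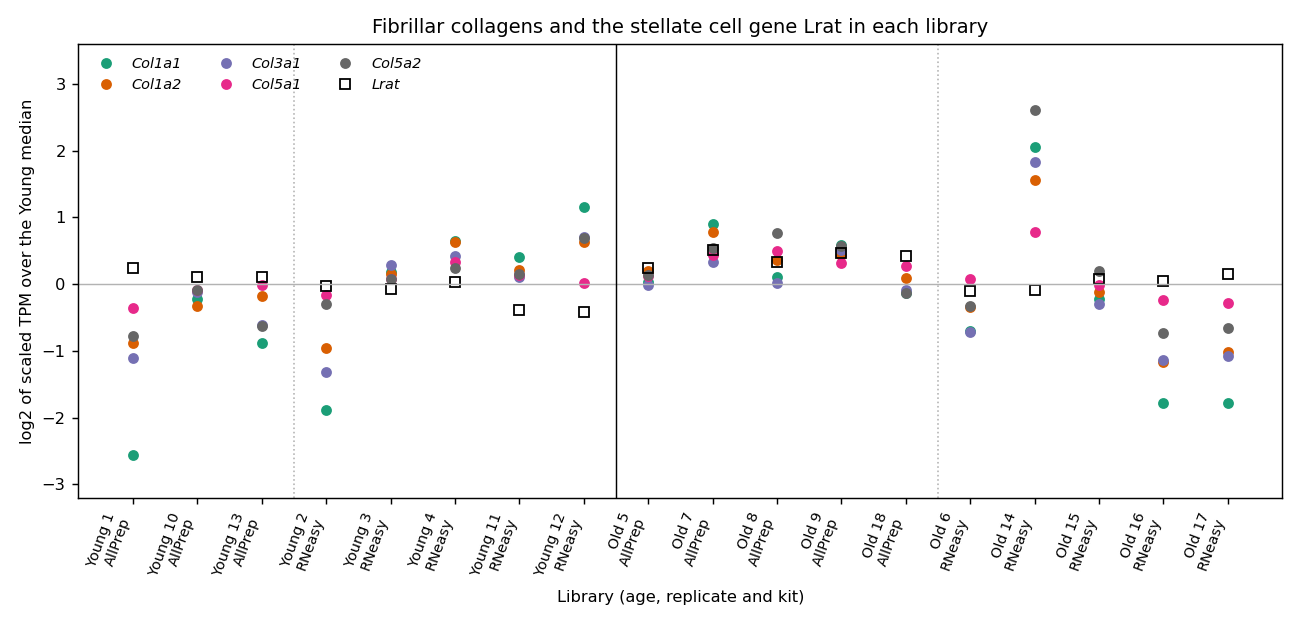
Log2 of scaled TPM over the Young median (vertical axis) for 5 fibrillar collagen chains (filled points) and the stellate cell gene Lrat (open squares) in each of the 18 libraries, ordered by age and kit. The solid line divides the ages and the dotted lines the kits. Col1a1, Col1a2 and Col3a1 lie well below 0 in Young replicates 1 and 2 and Old replicates 16 and 17, and well above it in Old replicate 14. Col5a1 stays nearer 0, at 2.77 scaled TPM in Young replicate 1 and 6.10 in Old replicate 14, against a Young median of 3.55. Lrat stays within 6.76 to 12.8 scaled TPM.

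Col1a1 and Col3a1 moved together, as did Col4a1 and Col4a2. Within an age, Col1a1 and Col3a1 (log2(scaled TPM + 0.5)) correlated with Pearson's r of 0.975 in 8 Young livers (exact permutation p = 0.000248) and 0.979 in 10 Old livers (permutation p = 3e-05). Spearman's rho was 0.952 (exact permutation p = 0.00114) and 0.976 (permutation p = 6e-05), and r was 0.972 and 0.968 without the 2 livers farthest from the median of Col1a1. For Col1a1 and Lrat, the vitamin A storage enzyme of stellate cells, r was -0.707 in Young (exact permutation p = 0.0516, rho -0.714, p = 0.0576) and 0.158 in Old (permutation p = 0.665, rho 0.418, p = 0.234). Neither passed the threshold, and the Old value became 0.790 without Old replicates 14 and 17, so it rests on those livers. For Col1a1 and Timp1, an inhibitor gene, r was 0.471 in Young (exact permutation p = 0.232, rho 0.5, p = 0.216) and 0.859 in Old (permutation p = 0.00207, rho 0.794, p = 0.00861), but 0.00347 in Young without Young replicates 1 and 2 and 0.561 in Old without Old replicates 14 and 17. For Col4a1 and Col4a2, chains of basement membrane collagen, r was 0.961 in Young (exact permutation p = 0.000124) and 0.966 in Old (permutation p = 0.00029), or 0.960 and 0.725 without the 2 farthest livers. Spearman's rho of that pair was 1 in Young (exact permutation p = 4.96e-05) and 0.891 in Old (permutation p = 0.00108).

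These 8 relations were computed after the data had been seen. Adjusted over the 8, Pearson's p was 0.00058 and 0.00024 for Col1a1 with Col3a1 in Young and Old, 0.0688 and 0.665 with Lrat, 0.265 and 0.00331 with Timp1, and 0.000496 and 0.00058 for the type IV pair. Each kit holds at most 5 livers of an age, so no r was taken within a kit. With each kit's mean subtracted, r of Col1a1 and Col3a1 was 0.972 in Young and 0.98 in Old, that of Col4a1 and Col4a2 0.958 and 0.973, that of Col1a1 and Lrat -0.543 and -0.301, and that of Col1a1 and Timp1 0.728 and 0.859.

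The basement membrane chains Col4a1 and Col4a2, which assemble in 1 triple helix and underlie endothelium and ducts, were high or low in the same livers but stood in a different ratio in Old livers. Col4a1 (ENSMUSG00000031502) ranged from 12.8 to 20.2 scaled TPM in Young (median 16.2) and from 9.79 to 41.4 in Old (median 15.8). Col4a2 (ENSMUSG00000031503) ranged from 10.9 to 20.7 scaled TPM in Young (median 13.6) and from 6.19 to 29.6 in Old (median 11.3). The highest value of both was in Old replicate 14, and for Col4a2 that was the single Old liver above the Young median. The log2 fold was 0.015 ± 0.19 (SE) for Col4a1 and -0.27 ± 0.21 for Col4a2, with limma adjusted p of 0.973 and 0.440. Without Old replicate 14, Col4a2 fell, with a log2 fold of -0.46 and a limma adjusted p of 0.0415, where 7.02% of all genes were called (3.67% higher and 3.35% lower). It was then the 1 gene called of the 33. Col4a1 had -0.17 and an adjusted p of 0.332 in that fit.

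The ratio of Col4a1 to Col4a2, both as scaled TPM of the same library, was 1.15 ± 0.0844 in 8 Young livers (SD) and 1.43 ± 0.146 in 10 Old livers (SD). In Young livers it ran from 0.979 in Young replicate 10 to 1.23 in Young replicate 4, and in Old livers from 1.21 in Old replicate 15 to 1.66 in Old replicate 9. The Old ratio was above the Young median in 10 of 10 livers and above the highest Young ratio in 9 of 10. The difference in mean log2 ratio was 0.31, with a two-sided exact permutation p of 0.000183 over 43758 splits and, adjusted over the 8 ratios computed, 0.00146. Without Old replicate 14 it was 0.31, with exact permutation p = 0.000329 and adjusted p = 0.00263. In AllPrep libraries alone it was 0.40 with exact permutation p = 0.0179, the smallest that 56 splits can give, and an adjusted p of 0.0476. In RNeasy libraries alone it was 0.23 with exact permutation p = 0.0159 over 252 splits, which did not pass after adjustment (0.127). The reads behind each level numbered 2237 to 18998. The exons of these genes share 22 bases on opposite strands, and the strand setting of the authors' counting is not given in the sources used here.

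**Figure D4:**
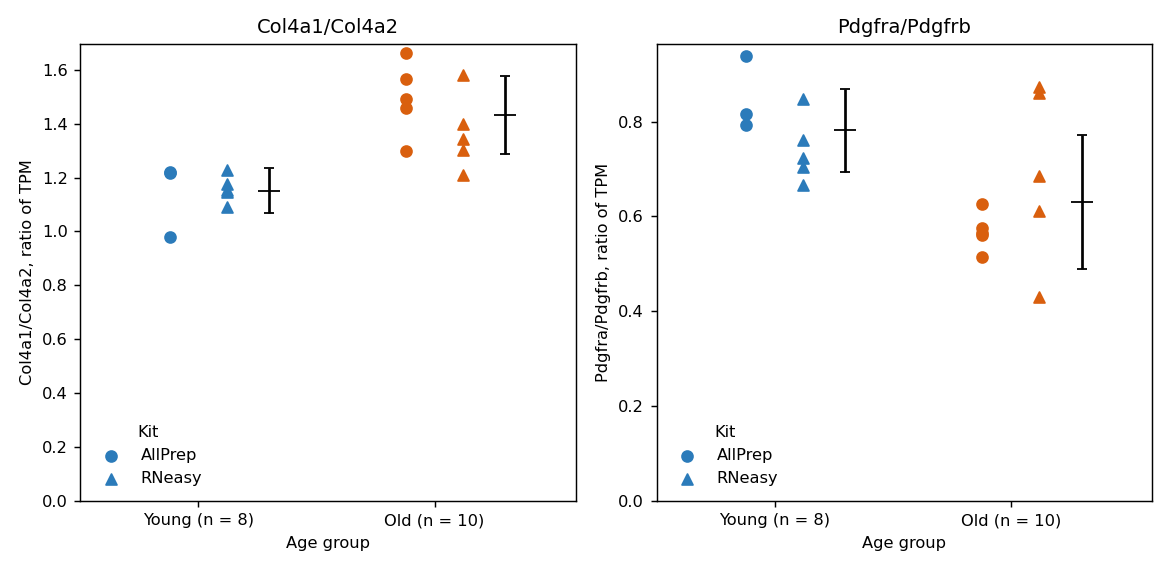
Ratio of scaled TPM of Col4a1 to Col4a2 (left) and of Pdgfra to Pdgfrb (right) in each liver, by age, with circles for AllPrep and triangles for RNeasy libraries; bars show mean ± SD. For Col4a1/Col4a2, 9 of 10 Old livers lie above the highest Young value of 1.23, and for Pdgfra/Pdgfrb 8 of 10 Old livers lie below the Young median of 0.777.

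The multiplexin collagens did not pass the test. Col15a1, a multiplexin of vessel basement membranes, ranged from 1.70 to 7.54 scaled TPM in Young and from 2.48 to 9.31 in Old, with a log2 fold of 0.18 ± 0.27 (SE), for which limma gave adjusted p = 0.713. Col18a1 had a log2 fold of 0.15 ± 0.12 (SE), for which limma gave adjusted p = 0.481. The highest Col15a1 value was in Old replicate 8 and the highest Col18a1 value, 532.8 scaled TPM, in Old replicate 7, while Old replicate 14 had the lowest Old value of Col18a1, 290.8. Without that liver the log2 folds were 0.12 (Col15a1) and 0.20 (Col18a1).

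Type VI collagen, whose 3 chains here build beaded microfilaments around cells, had higher medians in Old livers without passing the test. The Young and Old medians in scaled TPM were 6.31 and 7.67 for Col6a1, 2.31 and 2.88 for Col6a2, and 2.68 and 3.68 for Col6a3. Between 8 and 9 of the 10 Old livers were above the Young median of these chains, and the ranges overlapped. Their log2 folds were 0.18, 0.26 and 0.28 with limma adjusted p of 0.523, 0.376 and 0.386. They were 0.16, 0.20 and 0.21 without Old replicate 14. In AllPrep libraries they were 0.56, 0.60 and 0.71, and in RNeasy libraries -0.11, -0.0050 and -0.058. Col14a1, a fibril-associated collagen, was at 21.5 to 36.6 scaled TPM in Young (median 24.7) and 22.0 to 46.1 in Old (median 36.1). 5 of 10 Old livers were above the highest Young value, and 4 of the 5 livers with the lowest Old values were RNeasy libraries. Its log2 fold was 0.31 ± 0.14 (SE) with a limma adjusted p of 0.199, and 0.23 without Old replicate 14.

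Among glycoproteins and elastic fibre genes, Thbs1 had the largest and Eln the lowest log2 fold of the 33 with all libraries. The lowest was that of Col4a2 without Old replicate 14, and the largest was that of Timp1 (1.04, against 0.68 for Thbs1) in limma-voom. Thbs1, thrombospondin, which can release active TGF-beta, ranged from 1.27 to 4.22 scaled TPM in Young (median 1.89) and from 1.52 to 8.69 in Old (median 2.36). Old replicates 8, 14, 17 and 9 were above the highest Young liver, Young replicate 12, and the other Old livers lay within the Young range. The log2 fold was 0.57 ± 0.31 (SE) with a limma adjusted p of 0.271, and 0.44 without Old replicate 14. Eln, elastin, had Young values of 0.429 to 1.73 scaled TPM (median 0.834) and Old values of 0.391 to 1.34 (median 0.537). Old replicate 14 was the single Old liver above the Young median, and the log2 fold was -0.28 ± 0.14 (SE), for which limma gave adjusted p = 0.223, or -0.36 without that liver (adjusted p = 0.0770). Fn1 and Fbn1, the microfibril protein fibrillin, had log2 folds of 0.12 and 0.028, with limma adjusted p of 0.735 and 0.931, and of 0.076 and -0.089 without Old replicate 14.

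The small leucine-rich proteoglycans bind collagen fibrils and growth factors. Bgn, biglycan, ranged from 66.8 to 108.0 scaled TPM in Young (median 75.6) and from 73.2 to 144.9 in Old (median 98.7). Old replicates 7, 9, 8 and 18 were above the highest Young value and all 4 are AllPrep libraries, while 9 of 10 Old livers were above the Young median. Its log2 fold was 0.28 ± 0.093 (SE) with a limma adjusted p of 0.0894, and 0.33 without Young replicate 4, where it passed (0.0386, with 3.25% of all genes called). Dcn, decorin, ranged from 105.9 to 196.2 scaled TPM in Young and from 128.6 to 223.6 in Old, with 10 of 10 Old livers above the Young median of 126.1. Its log2 fold was 0.19 ± 0.10 (SE), for which limma gave adjusted p = 0.271. Lum, lumican, had a log2 fold of -0.10 (limma adjusted p = 0.651). The log2 folds were 0.28 (Bgn), 0.21 (Dcn) and -0.18 (Lum) without Old replicate 14.

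Crosslinking genes were low. Lox, the lysyl oxidase that starts collagen crosslinks, ranged from 0.0425 to 0.254 scaled TPM over the 18 livers. Loxl1, its relative active on elastic fibres, ranged from 0.610 to 1.83 scaled TPM in Young and from 0.709 to 1.33 in Old, with a log2 fold of -0.12 (limma adjusted p = 0.624), or -0.094 without Old replicate 14.

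Of the turnover genes, the inhibitor Timp3 had the smallest adjusted p of the 33. Timp3, which stays bound to the matrix, ranged from 13.8 to 17.7 scaled TPM in Young (median 14.9) and from 14.9 to 28.3 in Old (median 20.7). All 10 Old livers were above the Young median and 7 of 10 above the highest Young value, and the other 3, Old replicates 6, 16 and 17, are RNeasy libraries within the Young range. The log2 fold was 0.31 ± 0.099 (SE), with a limma adjusted p of 0.0734. Leaving out Old replicate 16 or Old replicate 6 brought it past the threshold (0.35 with adjusted p = 0.0475 in both, with 6.65% and 5.65% of all genes called), and leaving out Old replicate 14 did not (0.27, adjusted p = 0.0899). In AllPrep libraries the log2 fold was 0.43 and in RNeasy libraries 0.22. Timp3 shares 1733 exon bases with Syn3 on the opposite strand in GENCODE M21.

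Timp1, the inhibitor induced in injured liver, was at 0.0467 to 1.36 scaled TPM in Young (median 0.227) and 0.0602 to 3.10 in Old (median 0.613). Its lowest value rested on 2 reads and its highest, in Old replicate 14, on 154. The log2 fold was 0.43 ± 0.31 (SE), for which limma gave adjusted p = 0.427, and 0.18 without Old replicate 14. Timp2 had a log2 fold of 0.23 (limma adjusted p = 0.231). Mmp14, the membrane-bound collagenase, was the highest of the proteases at 34.0 to 54.6 scaled TPM in Young and 38.0 to 70.6 in Old. Its log2 fold of 0.18 and that of the gelatinase Mmp2, 0.17, had limma adjusted p of 0.361 and 0.603. With that library left out they were 0.10 (Mmp14), 0.21 (Mmp2) and, for Timp2, 0.22. The ratio of Mmp2 to Timp2 was 0.225 ± 0.0471 in 8 Young livers (SD) and 0.222 ± 0.0477 in 10 Old livers (SD), with exact permutation p = 0.873 (0.861 without Old replicate 14). Its log2 difference went opposite ways by kit, 0.42 in AllPrep (exact permutation p = 0.0714) and -0.36 in RNeasy libraries (exact permutation p = 0.0635), and neither passed.

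The growth factor and receptor genes centred on Pdgfrb, the PDGF receptor of stellate cells and pericytes. It ranged from 3.16 to 6.81 scaled TPM in Young (median 4.27) and from 3.59 to 8.28 in Old (median 6.79). Of the Old livers, 8 of 10 were above the Young median and 5 above the highest Young value, Young replicate 4, while Old replicates 16 and 17 lay below that median. The log2 fold was 0.43 ± 0.15 (SE) with a limma adjusted p of 0.102, and 0.40 without Old replicate 14 (adjusted p = 0.125). Pdgfrb rose in AllPrep libraries alone (0.85, limma adjusted p = 0.0187, with 1.13% of all genes called) and had 0.12 in RNeasy libraries (adjusted p = 0.870). It also passed without Old replicate 16 (0.52, limma adjusted p = 0.0337, with 6.65% of all genes called). Pdgfra, the receptor for the A ligand in fibroblasts, had a log2 fold of 0.13 (limma adjusted p = 0.444), or 0.16 without Old replicate 14.

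The ratio of Pdgfra to Pdgfrb was 0.782 ± 0.0874 in 8 Young livers (SD) and 0.631 ± 0.142 in 10 Old livers (SD), with exact permutation p = 0.0157 that missed the threshold after adjustment (0.063). Old replicates 16 and 17 had the highest Old ratios, 0.874 and 0.861, and Old replicate 14 the lowest, 0.430. Without the latter the log2 difference went from -0.33 to -0.28 (exact permutation p = 0.0268, adjusted p = 0.107). In AllPrep libraries alone the ratio was 0.849 in Young and 0.569 in Old, with exact permutation p = 0.0179, the smallest possible there (adjusted p = 0.0476). In RNeasy libraries it was 0.741 and 0.692, with exact permutation p = 0.571. Tgfb1, the main profibrotic cytokine gene of liver, ranged from 7.38 to 12.2 scaled TPM in Young and from 7.67 to 22.4 in Old, where 6 of 10 livers were above the highest Young value. Its log2 fold was 0.31 ± 0.16 (SE), for which limma gave adjusted p = 0.244, and 0.18 without Old replicate 14. Tgfb2 stayed between 0.0354 and 0.374 scaled TPM.

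Among the cell markers, Vim, the intermediate filament protein of mesenchymal cells and leukocytes, ranged from 16.2 to 27.5 scaled TPM in Young (median 23.6) and from 16.3 to 50.4 in Old (median 35.3). The 6 Old livers above the highest Young value were the 5 AllPrep livers and Old replicate 14, and the other Old RNeasy livers lay within the Young range. The log2 fold was 0.46 ± 0.18 (SE), for which limma gave adjusted p = 0.136, and it was 0.81 in AllPrep libraries (adjusted p = 0.0318) and 0.19 in RNeasy libraries (adjusted p = 0.843). It passed without Old replicate 16 (0.56, limma adjusted p = 0.0471). Lrat ranged from 6.76 to 10.7 scaled TPM in Young (median 8.98) and from 8.33 to 12.8 in Old (median 10.3), and 8 of 10 Old livers were above the Young median. Its log2 fold was 0.20 ± 0.066 (SE) with a limma adjusted p of 0.0856, with 0.22 in AllPrep and 0.18 in RNeasy libraries.

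Des, desmin, a filament protein of stellate and muscle cells, had a log2 fold of 0.15 (limma adjusted p = 0.223), with 8 of 10 Old livers above the Young median. Rgs5, a pericyte gene, had one of 0.037 (limma adjusted p = 0.917), with its highest value in each age in Young replicate 1 (43.2 scaled TPM) and Old replicate 8 (48.1). Leaving out Old replicate 14 gave 0.35 (Vim), 0.22 (Lrat, limma adjusted p = 0.0588), 0.15 (Des) and -0.0060 (Rgs5). The ratio of Acta2 to Lrat was 0.0599 ± 0.0288 in 8 Young livers (SD) and 0.0654 ± 0.0904 in 10 Old livers (SD), or 0.0374 ± 0.0188 without Old replicate 14. Its exact permutation p was 0.473 with and 0.0739 without that liver.

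Between extraction kits, 4 of these genes differed past the threshold. With age as a term, limma called 18.3% of all tested genes, those lower in RNeasy libraries being 5.65% of all tested. Lrat, Bgn, Des and Dcn fell in RNeasy against AllPrep libraries, 4 of the 33 (12.1%), by 0.34, 0.42, 0.34 and 0.38 on the log2 scale, with limma adjusted p of 0.00128, 0.0035, 0.00368 and 0.0148. Lrat was at 11.2 ± 1.19 scaled TPM in AllPrep (SD, n = 8) and 8.56 ± 1.05 in RNeasy libraries (SD, n = 10), and Bgn at 111.2 ± 22.2 and 80.0 ± 10.3. Without Old replicate 14, an alternative added after the data had been seen, 9 of 33 were lower (27.3%, with 8.9% of all genes lower): Col4a1, Lum, Tgfb1, Rgs5 and Vim joined these 4. The kits were split over both ages, and which livers went to which kit is not explained in the labels. Body weight moved with the kit: among Old mice the median (no unit in the labels) was 46.7 for AllPrep (39.5 to 55) and 37.8 for RNeasy (35.1 to 45.5), and among Young mice 32 (26.6 to 34.8) and 28.5 (27.2 to 33.1). The part of body weight in the kit differences was not tested.

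**Figure D5:**
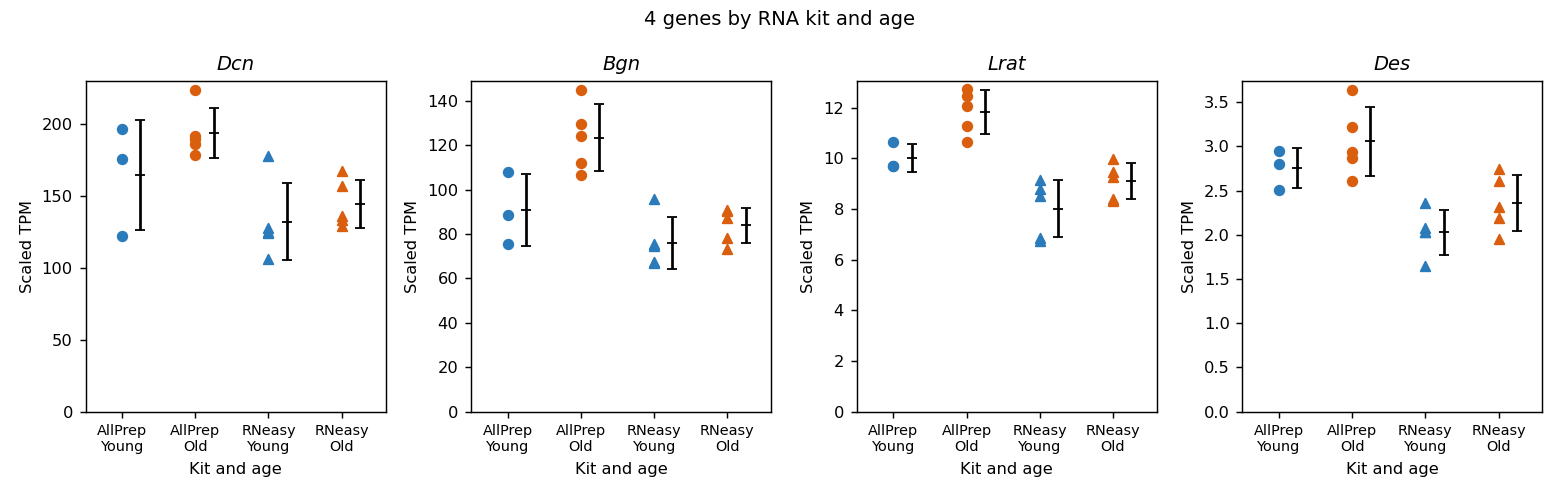
Scaled TPM of Dcn, Bgn, Lrat and Des (vertical axes from 0) in each liver by kit and age, with circles for AllPrep, triangles for RNeasy, blue for Young and orange for Old; bars show mean ± SD. In each panel the mean of the RNeasy livers is lower than that of the AllPrep livers of the same age. Single livers of the kits overlap for Dcn and Bgn in Young and for Des in Old.

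Body weight at the clamp ran from 26.6 to 34.8 in Young and from 35.1 to 55.0 in Old mice (the labels name no unit), so weight and age cannot be told apart between the groups. Within an age, no gene of the 33 had a slope on weight past the threshold in limma, where 0.072% of all tested genes did, and 9 of the 33 had an unadjusted p under 0.05, beside 2211 genes (15.9%) in all. Per SD of weight within age, the log2 slope was 0.54 ± 0.26 (SE) for Col1a1 (adjusted p = 0.330), 0.22 ± 0.063 for Loxl1 (0.140) and 0.18 ± 0.060 for Col18a1 (0.166). Without Old replicate 14, 19 of the 33 had an unadjusted p under 0.05, beside 3054 genes (22.0%) in all, and 0 of 33 passed, with 1.2% of all genes called. The smallest adjusted p was then that of Timp3, 0.0575, with a slope of 0.16. On the suppression of glucose production by insulin, the readout of hepatic insulin response, 0 of the 33 passed in limma, as did 0 of 13895 genes, with 2 of the 33 and 1267 of all genes at an unadjusted p under 0.05 (1 of the 33 and 961 genes without Old replicate 14, where 0 genes passed). With weight added as a term to the age comparison, 0 of the 33 passed and 0.0216% of all genes did. The log2 fold of Col1a1 was then -1.03 ± 0.76 (SE), with a limma adjusted p of 0.604.

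Genes that act on collagen before and after secretion were read from other lists. Of 20 tested genes of collagen processing and secretion, 2 rose and 0 fell in Old livers, where 2.44% of all tested genes rose and 2.47% fell. P4ha1, the catalytic subunit of collagen prolyl 4-hydroxylase, was at 6.12 ± 0.67 scaled TPM in 8 Young livers (SD) and 9.73 ± 1.96 in 10 Old livers (SD). All 10 Old livers exceeded the Young median, with a log2 fold of 0.63 ± 0.10 (SE), for which limma gave adjusted p = 0.00375, and it was 0.54 in AllPrep and 0.69 in RNeasy libraries. It stayed called in each of 18 fits that left out 1 library (0.65 without Old replicate 14), and in neither kit alone. P3h2, a prolyl 3-hydroxylase of basement membrane collagen, was at 1.10 ± 0.0963 and 1.51 ± 0.184 scaled TPM, with a log2 fold of 0.32 ± 0.067 (SE), for which limma gave adjusted p = 0.0137. The median log2 fold of this list was -0.013, with 8 of 20 positive.

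In the TGF-beta pathway list, 0 of 22 rose and 1 fell, where 2.47% of all tested genes fell: Bambi, a decoy receptor that dampens TGF-beta signals, had a log2 fold of -0.43 ± 0.11 (SE), for which limma gave adjusted p = 0.0348, with all 10 Old livers under the Young median. That call was lost in 8 of 18 fits that left out 1 library, those without Young replicates 1, 2, 4 and 11 or Old replicates 7, 8, 9 and 15, with limma adjusted p up to 0.0677. Of 4 PDGF ligand genes 0 were called, Pdgfb having a log2 fold of 0.30 (limma adjusted p = 0.273). Of 28 other matrix genes 0 rose and 1 fell, Col12a1, a fibril-associated collagen, with 1.20 ± 0.278 scaled TPM in Young and 0.672 ± 0.221 in Old, a log2 fold of -0.53 ± 0.12 (SE), for which limma gave adjusted p = 0.0177. Of 14 other matrix proteases and inhibitors 1 rose and 0 fell, where 2.44% of all tested genes rose. That gene was Mmp12, macrophage elastase, which also stands in the lipid-associated macrophage list. Mmp12 had a log2 fold of 1.85 ± 0.39 (SE), for which limma gave adjusted p = 0.0141. Without that 1 liver, Old replicate 14, Lama1 of the other matrix genes was also called, higher in Old livers, as were 3.67% of all genes. Pdgfb then had 0.17, P3h2 0.31, Bambi -0.41, Col12a1 -0.54 and Mmp12 1.57, and the last 4 stayed called. In RNeasy libraries alone none of those 4 was called (0.0864% of all genes were). Only Mmp12 of them was called in AllPrep libraries alone (limma adjusted p = 0.00169, with 1.13% of all genes called). The median log2 folds of these 4 lists were 0.0033, -0.039, -0.0097 and 0.14, beside 0.0037 for all genes tested.

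Markers of the cells that could carry these transcripts were summed in each liver. The stellate list (13 of 15 tested) ran from 184.9 to 340.4 scaled TPM in Young and from 221.8 to 376.9 in Old, with Gfap and Nes below 1 TPM on average. Of the 13 tested 1 rose and 0 fell, where 2.44% of all tested genes rose and 2.47% fell. That gene was Cygb, cytoglobin, which went from 6.90 ± 0.848 to 10.1 ± 2.43 scaled TPM. Its log2 fold was 0.46 ± 0.11 (SE), for which limma gave adjusted p = 0.0234, and 0.47 without Old replicate 14 (limma adjusted p = 0.0198). The call with all libraries was lost without Young replicate 1 (0.0566) or Young replicate 10 (0.0584). Neither kit alone called Cygb, with 0.74 in AllPrep (limma adjusted p = 0.0541) and 0.24 in RNeasy libraries (0.539). Among smooth muscle markers Myh11, Lmod1 and Synpo2 were below 1 TPM on average, and the list summed to 5.78 to 7.69 in Young and 5.48 to 12.8 in Old. That list holds Des, and the next one Eln, which are also among the genes followed above. The portal fibroblast and mesothelial list summed to 28.8 to 50.2 in Young and 28.7 to 80.8 in Old, with 8 of its 14 genes below 1 TPM on average (Eln, Clec3b, Pi16, Upk1b, Wt1, Gpm6a, Krt19 and Muc16). The hepatocyte list summed to 120899 to 170239 in Young and 130964 to 182820 in Old.

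Old replicate 14, the liver with the highest fibrillar collagen sum, also stood apart in other markers. Its hepatocyte list had the highest sum of the 18 livers, 182820 scaled TPM (at most 174414 elsewhere). Its stellate list did not stand apart, at 281.5 against an Old median of 284.8. Its lipid-associated macrophage list summed to 1838 scaled TPM, against 426.6 to 842.8 in the other Old and 499.7 to 641.2 in the Young livers. Of 11 genes of that list tested 4 rose with age and 0 fell (Trem2, Gpnmb, Mmp12 and Ms4a7), where 2.44% of all tested genes rose and 2.47% fell. Ms4a7 was lost without Young replicate 1 or 10 and Gpnmb in limma-voom (adjusted p = 0.0598). The sinusoidal endothelial list of Old replicate 14 summed to 394.2 (at most 337.1 in Young and 290.5 in other Old livers). Its cholangiocyte list summed to 107.9 (at most 87.7 elsewhere), with the defining genes Krt7, Krt19, Epcam and Cldn7 below 1 TPM on average over the 18 livers. Spp1 stands in both the cholangiocyte and the macrophage list, so those sums are not independent. The pancreas and gut list of that liver, 2 of 6 genes of which stood in the table, summed to 102.2 (at most 16.8 elsewhere). Those 2 were Cela1 and Vil1, and Vil1 was below 1 TPM on average. The pancreas genes Prss1, Cpa1, Amy2a5 and Ins2 were not in the table. Of the Kupffer cell list 0 of 12 rose and 1 fell, Cd163, with a log2 fold of -1.72 (limma adjusted p = 0.0255). Of 7 tested other endothelial genes 0 rose and 1 fell, Wnt2 (-0.82, limma adjusted p = 0.0367). The share of all tested genes that fell was 2.47%. Cd163 was lost without Young replicate 1, 10 or 13, and Wnt2 in 10 of 18 fits that left out 1 library, with limma adjusted p up to 0.0658 and 0.0823. Jchain of the plasma cell list rose (1.44, limma adjusted p = 0.0228), a call lost without Young replicate 10 (0.0529). Without Old replicate 14, Cd63 of the lipid-associated macrophage list was also called higher and Tat of the hepatocyte list lower. In that fit 3.67% of all genes were called higher and 3.35% lower. All 6 of Trem2, Gpnmb, Ms4a7, Cd163, Wnt2 and Jchain stayed called without that liver, with log2 folds of 1.05, 2.15, 0.78, -1.43, -0.76 and 1.21. In RNeasy libraries alone none of the 6 was called (limma adjusted p 0.490 to 0.646, with 0.0864% of all genes called). All but Wnt2 were called in AllPrep libraries alone (1.13% of all genes). The log2 folds in AllPrep and RNeasy libraries were 1.61 and 0.96 (Trem2), 3.82 and 1.43 (Gpnmb) and 1.37 and 0.58 (Ms4a7). For Cd163, Wnt2 and Jchain they were -2.73 and -0.97, -1.22 and -0.51, and 1.54 and 1.35. The part of these cell types in the results for the matrix and stellate genes was not tested.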

How the data were processed

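Liver RNA of 8 Young and 10 Old mice was sequenced, paired-end per the design text. The authors deposited TPM (reads per gene length, rescaled to the same total in each library) for 18946 genes. STAR 2.7.9a, Subread and featureCounts, and the builds GRCm39 and mm10, are named per the submitters' processing notes, with no role for each, so coordinates are those of the RefSeq table only. The sources used here do not give gene lengths, annotation or strand setting, and overlapping genes are uncertain: 14 of the 36 genes share exon bases with another gene in GENCODE M21, 6 with one in the table. An Ensembl identifier was missing for 3196 genes.

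From these TPM, whole reads were recovered for 18946 of 18946 genes (largest distance from a whole number 2.24e-08). The TPM were scaled by trimmed means (30% of log ratios and 5% of levels trimmed at each end). limma 3.58.1 in R 4.3.3 was fitted with a variance trend on log2(scaled TPM + 0.5), with age and kit as terms. The test took the 13895 genes that reached 0.5 TPM in 8 or more libraries, with Benjamini-Hochberg adjustment over them and a threshold of 0.05. A fold on this scale understates changes of low genes. In simulated data of 13900 genes for Old against Young, limma found 6% of 1.25-fold changes, 58.3% of 1.5-fold, 80% of 2-fold and 89.8% of 4-fold ones, and 4 of its 119 calls were false. The simulated libraries held no kit effect and no outlying library, and each gene was drawn independently. These rates therefore need not hold for the real libraries. For 8 ratios, the mean log2 ratio was compared by two-sided exact permutation tests (43758 splits, smallest p 2.29e-05). No same-age pair of libraries (73 compared) was a duplicate: chi-square per degree of freedom was at least 39.8.

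The genes, lists and tests were chosen with earlier results of these data known. All 36 genes are named, and of the other lists every gene called with all libraries or without Old replicate 14. Outside the cell marker lists, a list without such a gene gives the one with the smallest p. Alternatives covered each library left out, each kit alone, the kit term, pseudocount, filter, scaling, library weights, body weight and limma-voom on the recovered reads. The other steps ran in Python 3.11.15 (pandas 2.3.3, numpy 2.4.6, scipy 1.17.1, matplotlib 3.10.9).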

Additional observations from a re-analysis of the deposited data

Results flagged for a closer look

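In 16 of 72 groups (36 genes in 2 ages) the highest liver stood farther from the next than Dixon's test allows at its 95% level. Chance flags about 1 in 20 groups where values are normally distributed. The test was run on scaled TPM without logs, where high values spread more widely, so the 16 cannot be set against that rate. The genes are also not independent of one another. In 11 of the 16 the liver was Old replicate 14. Its collagen chains were at 17.8 (Col1a1), 23.1 (Col1a2), 47.3 (Col3a1), 6.48 (Col5a2), 41.4 (Col4a1) and 29.6 scaled TPM (Col4a2). Its other such values were 1.34 scaled TPM for Eln, 4.03 for Fbn1, 3.10 for Timp1, 0.374 for Tgfb2 and 2.67 for Acta2. Lrat, Des, Dcn and Bgn were not among its outlying genes. The other 5 cases lay in 3 livers. Old replicate 8 had 9.31 scaled TPM of Col15a1 and 48.1 of Rgs5, Young replicate 12 had 1.73 of Eln and 4.22 of Thbs1, and Young replicate 1 had 43.2 of Rgs5.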

How the results depend on the processing

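No paired analysis was possible because no replicate number occurs in both ages. Of the 33 tested genes, 0 were called with all libraries and 0 to 3 with 1 library left out (Bgn without Young 4, Timp3 without Old 6, Col4a2 without Old 14, and Timp3, Pdgfrb and Vim without Old 16). The count was 2 in AllPrep libraries, 2 with library weights (Col4a2 and Timp3, with 10.1% of all genes called) and 2 without Old 14 and 16 together (Col4a2 and Pdgfrb, with 8.84%), a setting added after seeing the data. It was 0 with either pseudocount, filter or scaling, without the kit term, in RNeasy libraries, with body weight and with limma-voom. Kit calls went from 4 to 9 without Old 14. Of 8 ratios 1 passed, against 3 in AllPrep (Col1a1/Col3a1, Col4a1/Col4a2, Pdgfra/Pdgfrb) and 0 in RNeasy libraries. The 3 tied at 0.0179, the smallest exact permutation p that 56 splits can give, and their adjusted p of 0.0476 rests on that tie. In RNeasy libraries Col4a1/Col4a2 had a log2 difference of 0.23 with a smaller exact permutation p of 0.0159 (adjusted p = 0.127). The counts of the kits can therefore not be compared. Changes of sign in log2 folds follow. With 1 library left out, the ranges were -0.039 to 0.46 (Col1a1), -0.044 to 0.30 (Col1a2), -0.11 to 0.28 (Col3a1), -0.17 to 0.11 (Col4a1), -0.0039 to 0.34 (Col15a1), -0.087 to 0.25 (Fn1), -0.089 to 0.087 (Fbn1) and -0.047 to 0.14 (Rgs5), and Mmp2/Timp2 had 0.025 without Old 14. In AllPrep libraries Loxl1 had 0.22, Rgs5 -0.13 and Mmp2/Timp2 0.42. In RNeasy libraries the values were -0.49 (Col1a1), -0.31 (Col1a2), -0.30 (Col3a1), -0.011 (Col5a1), -0.011 (Col18a1), -0.11 (Col6a1), -0.0050 (Col6a2), -0.058 (Col6a3), -0.089 (Fbn1), -0.26 (Mmp2), -0.013 (Pdgfra), -0.24 (Col1a1/Col1a2) and -0.27 (Col1a1/Col3a1). Without Old 14 as well, they were -1.07 (Col1a1), -0.75 (Col1a2), -0.82 (Col3a1), -0.18 (Col5a1), -0.37 (Col5a2), -0.33 (Col4a1), -0.0013 (Col15a1), -0.20 (Col6a1), -0.16 (Col6a2), -0.23 (Col6a3), -0.012 (Fn1), -0.33 (Fbn1), -0.25 (Mmp2), -0.019 (Timp1), -0.018 (Timp2) and -0.064 (Vim). With body weight as a term they were -1.03 (Col1a1), -0.61 (Col1a2), -0.56 (Col3a1), -0.087 (Col5a1), -0.0031 (Col5a2), -0.14 (Col4a1), -0.013 (Col15a1), -0.29 (Col18a1), -0.37 (Col6a1), -0.30 (Col6a2), -0.29 (Col6a3), -0.064 (Col14a1), -0.19 (Fn1), -0.25 (Fbn1), -0.028 (Bgn), -0.37 (Mmp2), -0.094 (Timp2), -0.036 (Timp3), -0.023 (Pdgfra) and -0.011 (Rgs5). With library weights they were -0.066 (Col1a1), -0.039 (Col1a2), -0.13 (Col3a1), -0.16 (Col4a1), -0.0053 (Col15a1), -0.077 (Fn1) and -0.073 (Fbn1), and without Old 14 and 16 -0.16 (Col4a1), -0.052 (Fbn1) and -0.024 (Rgs5). The cause of these changes was not tested. Recovered reads limit Timp1, Lox and Tgfb2, whose lowest values rest on 2, 8 and 13 reads.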
